A study of Mus musculus with 13 samples.

Results

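The endothelial genes that hold blood coagulation and fibrinolysis in balance were followed in mouse lung after 5 days of normal or raised inspired oxygen. The set has 9 members, taken by gene symbol from the 32544 symbols of the count table: Procr, Thbd, Tfpi, F3, F2r, Vwf, Plat, Plau and Plaur. It was chosen on measured values in part, since the rise of Procr in these libraries was one reason to draw it up. Procr is therefore described without a test. The stated rule names no values of the other 8 genes, which were tested, but they too were chosen with earlier results of these data known. All 9 genes were among the 12496 genes that passed the filter on low counts, and all of them had more than 3 counts, the floor used here, in each library.

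The mice were wild-type (WT) C57BL/6J males, bought at 7 weeks of age. The labels also give an age of 7 weeks, while the paper places its experiments at a later age. In the normoxia group they breathed 21% oxygen and in the hyperoxia group 80% oxygen, and the labels name no other treatment. Whole lungs were perfused with buffer and frozen, and their RNA was read with Quant-seq, which counts polyadenylated transcripts from their 3′ ends. There were 7 normoxic and 6 hyperoxic libraries, 1 for each sample, and the labels do not state that each sample is a separate animal, so that the p-values measure the spread between these samples.

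Endothelial cells keep blood fluid with thrombomodulin and the endothelial protein C receptor, which together turn thrombin into an activator of protein C, and with tissue factor pathway inhibitor, which stops coagulation where tissue factor starts it. They also store von Willebrand factor, the large protein that tethers platelets to an injured wall, and release tissue-type plasminogen activator, which sets off the digestion of fibrin. Injured or inflamed endothelium is known to shift this balance, and in the lung fibrin in the airspaces is a feature of acute injury.

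The total count was between 1607111 and 3387736 in the normoxic and between 2029006 and 4540288 in the hyperoxic libraries, and a count of 3 corresponded to 0.656 to 1.84 CPM, the count of a gene scaled to a fixed library total. All levels below are CPM after scaling by the trimmed mean of M-values (TMM), and all changes are log2 fold changes of hyperoxia minus normoxia from the quasi-likelihood fit of edgeR across all genes. The hyperoxic library of replicate 1, called Hyperoxia 1 below, stood apart from the rest. In log2 CPM it correlated at 0.721 to 0.833 with the 12 remaining libraries, which correlated at 0.854 to 0.967 among themselves, and counts were found for 14170 genes, against 15476 to 16595. The names of the libraries fall into letters B to M (5 normoxic and 3 hyperoxic) and O to S (2 normoxic and 3 hyperoxic), and the labels do not say what the letters mark. Lung identity was plain from the markers, with summed alveolar epithelial markers of 14472 to 25239 CPM in normoxia, and all 12 pan-endothelial markers passed the filter.

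In the promoters of several members the same 7 bases occur, and the stretches are printed here to show what these members share in sequence. The motif is TGACTCA, or TGAGTCA on the other strand, to which the Fos and Jun proteins of AP-1 are known to bind, and it was picked after the promoter sequences had been read. RefSeq windows of 300 bases (250 before and 50 after the transcription start, GRCm38.p6) were given for Procr, F3, Tfpi, Plaur and F2r, and 4 of these 5 genes hold the motif, Tfpi being the exception. Thbd, Vwf, Plat and Plau were not covered by the table. The motif occurs in 5.20% of all 32851 windows and in 5.95% of the 27025 genes with a window. The motif stands in capitals below with 20 bases to either side, each written 5′ to 3′ on the strand of its gene. None of the 4 stretches overlaps an annotated exon of its own gene, the only exons compared. They lie at chr2:155751043-155751089 (+) for Procr, chr3:121723382-121723428 (+) for F3, chr7:24462394-24462440 (+) for Plaur and chr13:95618644-95618690 (-) for F2r.
Procr: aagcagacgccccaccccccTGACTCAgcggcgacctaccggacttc
F3: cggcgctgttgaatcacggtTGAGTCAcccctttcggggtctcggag
Plaur: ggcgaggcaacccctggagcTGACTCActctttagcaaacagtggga
F2r: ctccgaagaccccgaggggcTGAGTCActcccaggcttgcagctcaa
Counted from the RefSeq start of each window, which can differ from the gene boundary in GENCODE given below, the motif begins 154 bases upstream in Procr, 135 in F3, 69 in Plaur and 204 in F2r. A match of these letters is a description of the sequence and was not tested as a site of binding.

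Between the groups, 3 of the 8 members other than Procr were higher in hyperoxia (F3, Plat and F2r) and 2 were lower (Thbd and Vwf) at an adjusted p under 0.05, while Tfpi, Plau and Plaur did not pass. Of all genes tested, 11.8% were higher and 10.8% were lower by the same rule. The median log2 fold change of the 8 genes was 0.56, against -0.03 over all genes tested. Without Hyperoxia 1, 4 members were higher, Tfpi being added, and 2 were lower, against 15.2% and 13.3% of all genes in that fit. The groups were fully separated in 1 of the 8 genes, Thbd, in which all hyperoxic libraries were below all normoxic ones, as in 5.23% of all genes. In none of the 8 were all hyperoxic libraries above all normoxic ones, which held for 5.6% of all genes. The lungs are bulk tissue, in which fewer cells of a type and less RNA per cell cannot be told apart.

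**Figure D1:**
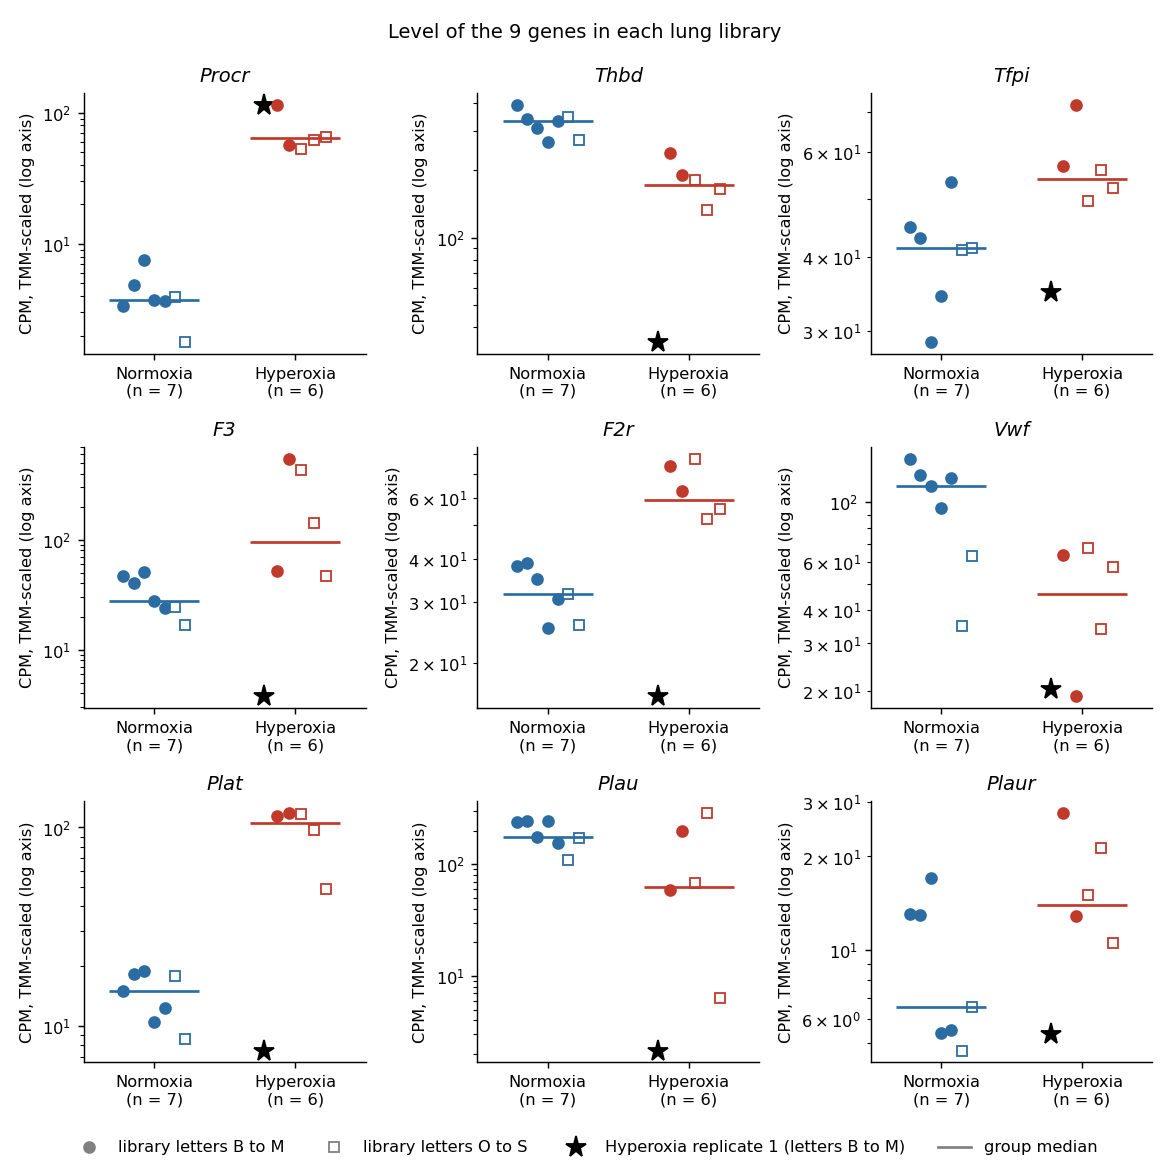
Level of each of the 9 genes in TMM-scaled CPM (log axis) in the 7 normoxic (blue) and 6 hyperoxic (red) libraries, with circles for library letters B to M, squares for O to S, a star for Hyperoxia 1 and a line at the group median. The groups are apart in Procr and Thbd, and the star lies far below the other hyperoxic libraries in Thbd, F3, Plat and F2r but not in Procr.

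The receptor that holds protein C at the endothelial surface and the receptor that presents thrombin to it went in opposite directions. Procr (chr2:155751117-155755471, + strand, protein-coding, GRCm38) encodes the endothelial protein C receptor. Its level was 1.78 at the lowest, 3.70 at the median and 7.52 at the highest in normoxia. In hyperoxia the lowest, median and highest levels were 52.8, 63.6 and 115 CPM. All 6 hyperoxic libraries were above all 7 normoxic ones, and the lowest of them was still several times the highest normoxic level. The group means were 4.12 ± 1.76 CPM (SD, n = 7) and 77.5 ± 29.0 CPM (SD, n = 6), a log2 fold change of 4.21 or 18.6-fold. As this rise chose the set, no p, standard error or interval of the change is given. The normoxic values rest on 6 to 23 counts per library, so that the size of the fold depends on few reads. Hyperoxia 1 had 114 CPM of Procr, close to the highest level, and without it the log2 fold change was 4.09. The difference was as large within the libraries of letters B to M (4.16 in mean log2 CPM) as within those of letters O to S (4.17).

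Thbd (chr2:148404466-148408188, - strand) encodes thrombomodulin, the thrombin receptor with which Procr acts. Its normoxic levels ran from 268 through a median of 333 to 393 CPM, the narrowest relative spread among the 9 genes at 1.47-fold. In hyperoxia they ran from 34.3 through 173 to 240 CPM. All 6 hyperoxic libraries were below all normoxic ones. The means were 322 ± 43.6 CPM (SD, n = 7) and 157 ± 69.7 CPM (SD, n = 6), and Thbd fell by 1.03 on the log2 scale (SE 0.29) with an adjusted p of 0.0183 (edgeR quasi-likelihood test). Hyperoxia 1 held the lowest level by far. Leaving it out gave a log2 fold change of -0.81 (SE 0.15) and an adjusted p of 0.000727 with edgeR, so that the drop was smaller and its error too. Within the letters the differences in mean log2 CPM were -1.48 for B to M, which include Hyperoxia 1, and -0.95 for O to S. Hyperoxia 1 was at -3.20 from the mean of all normoxic libraries in log2 CPM. Hyperoxia 2 and Hyperoxia 3, of the same letters, were at -0.41 and -0.74.

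Protein C itself, encoded by Proc, is made mainly by the liver and was at the floor in the lung, with 16 counts over all normoxic and 1 count over all hyperoxic libraries, and it was not tested. Pros1, which encodes the cofactor protein S, was at 76.1 ± 7.84 CPM (SD, n = 7) and 86.7 ± 9.47 CPM (SD, n = 6), an adjusted p of 0.297 (edgeR). Serpinc1, the gene of antithrombin, had a log2 fold change of 0.26 (SE 0.21) and an adjusted p of 0.417 (edgeR), and its locus overlaps genes on both strands. Hs3st1 encodes a sulfotransferase that makes the heparan sulfate to which antithrombin binds. It fell from 20.8 ± 9.82 CPM in normoxia (SD, n = 7) to 5.76 ± 2.95 CPM in hyperoxia (SD, n = 6), a log2 fold change of -1.83 (SE 0.37) with an adjusted p of 0.00200 (edgeR), and all 6 hyperoxic libraries were below the normoxic ones. Among the 9 listed genes of the protein C pathway and of anticoagulant proteins, 3 were tested, of which 1 was lower and 2 did not pass.

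The initiator of coagulation varied widely between hyperoxic lungs. F3 (chr3:121723537-121735048, + strand) encodes tissue factor, the cell-surface receptor of factor VII, which is strong in epithelial and perivascular cells as well as in activated endothelium. In normoxia its level was 16.7 at the lowest, 27.6 at the median and 50.7 CPM at the highest. In hyperoxia these were 3.75, 96.4 and 546 CPM, a 145-fold spread, and the 6 libraries stood at 3.75, 51.8, 546, 432, 141 and 47.2 CPM for replicates 1 to 6. The groups overlapped, with 4 hyperoxic libraries above all normoxic ones, replicate 6 within their range and Hyperoxia 1 below it. The means were 32.9 ± 12.99 CPM (SD, n = 7) and 204 ± 228 CPM (SD, n = 6). The log2 fold change was 2.63 (SE 0.70, 95% interval 1.14 to 4.12) with an adjusted p of 0.0133 (edgeR), and 2.91 (SE 0.52) with an adjusted p of 0.000596 (edgeR) without Hyperoxia 1. In limma-voom the rise was not called, with a log2 fold change of 1.53 and an adjusted p of 0.253. Within letters B to M, which include Hyperoxia 1, the mean log2 CPM of F3 differed by 0.44, and within letters O to S by 2.78.

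Tfpi (chr2:84432855-84476775, - strand) encodes tissue factor pathway inhibitor, which blocks the complex of tissue factor and factor VII. Its levels were between 28.8 and 53.3 CPM in normoxia, with a median of 41.3. In hyperoxia they were between 34.8 and 71.9 CPM, with a median of 54.0. The ranges overlapped, 3 hyperoxic libraries being above all normoxic ones. The log2 fold change was 0.39 (SE 0.17, 95% interval 0.02 to 0.76) with an adjusted p of 0.120 (edgeR), and it passed only once Hyperoxia 1 was left out, at 0.51 with an adjusted p of 0.0213 (edgeR).

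F2r (chr13:95601803-95618487, - strand) encodes the main receptor through which thrombin signals to endothelial cells. It was at 25.2, 31.8 and 38.8 CPM at the lowest, median and highest in normoxia, and at 16.1, 59.1 and 77.5 CPM in hyperoxia. The other 5 hyperoxic libraries, between 52.2 and 77.5 CPM, were all above the normoxic range, and Hyperoxia 1 was below it. The means were 32.2 ± 5.43 CPM (SD, n = 7) and 56.4 ± 22.1 CPM (SD, n = 6), a log2 fold change of 0.81 (SE 0.26) with an adjusted p of 0.0334 (edgeR). Without Hyperoxia 1 the log2 fold change was 1.02 (SE 0.15) with an adjusted p of 0.000114 (edgeR). With all libraries the call was near the threshold, and it was lost when Normoxia 4, Normoxia 7, Hyperoxia 2 or Hyperoxia 4 was left out, with adjusted p between 0.0558 and 0.0700 (edgeR). It was also lost in 5 of the 8 other tested settings, with adjusted p of 0.0836 in limma-voom and 0.0531 with the letters as a term in edgeR. The mean log2 CPM of F2r differed by 0.34 within letters B to M, which include Hyperoxia 1, and by 1.07 within letters O to S. Hyperoxia 1 was at -0.95 from the mean of all normoxic libraries in log2 CPM. Hyperoxia 2 and Hyperoxia 3, of the same letters, were at 1.20 and 0.96. The other protease-activated receptors tested, F2rl1 at a log2 fold change of 0.61 (SE 0.37) and F2rl2 at 0.18 (SE 0.49), did not pass, with adjusted p of 0.258 and 0.830 (edgeR).

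**Figure D2:**
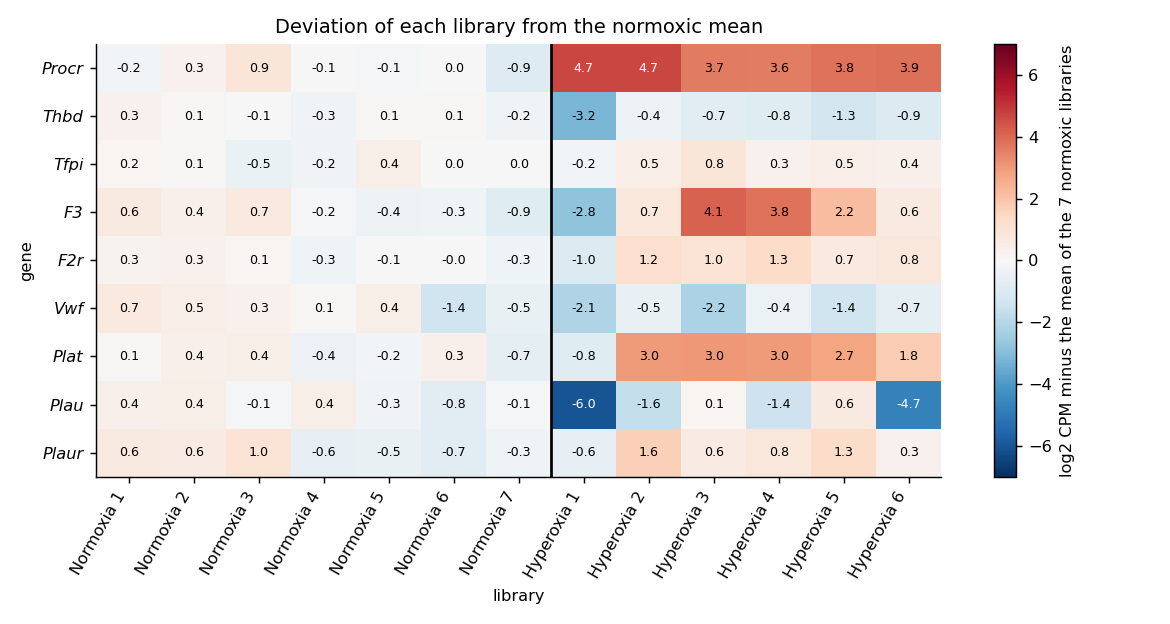
Deviation of each of the 13 libraries (columns) from the mean log2 CPM of the 7 normoxic libraries for each gene (rows), in log2 units, red for higher and blue for lower. Hyperoxia 1 is blue in every gene but Procr, Plau is deep blue in Hyperoxia 1 and Hyperoxia 6, and F3 is deep red in Hyperoxia 3 and Hyperoxia 4.

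Vwf (chr6:125546774-125686679, + strand) encodes von Willebrand factor and is expressed in endothelium of larger vessels and in megakaryocytes. Its normoxic levels were 34.8 at the lowest, 114 at the median and 145 CPM at the highest, and its hyperoxic levels 19.1, 45.8 and 67.9 CPM. The groups overlapped through Normoxia 6 and Normoxia 7, the lowest of the normoxic libraries, and 3 hyperoxic libraries were below both. The means were 100.2 ± 38.8 CPM (SD, n = 7) and 43.8 ± 22.01 CPM (SD, n = 6), and Vwf fell by 1.18 on the log2 scale (SE 0.35) with an adjusted p of 0.0241 (edgeR). Normoxia 6 and Normoxia 7 are the only normoxic libraries of letters O to S, and the fall was not seen there. Its mean log2 CPM differed by -2.01 within letters B to M and by 0.12 within letters O to S, and with the letters as a term in edgeR the log2 fold change was -1.05 with an adjusted p of 0.0798. Without Normoxia 1 it was -1.06 with an adjusted p of 0.0510, and without Hyperoxia 1 it was -1.02 with an adjusted p of 0.0282 (edgeR).

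Genes that act on the storage and release of von Willebrand factor were also followed. Selp encodes P-selectin, which is stored beside von Willebrand factor in Weibel-Palade bodies. It rose from 5.51 ± 1.06 CPM in normoxia (SD, n = 7) to 20.4 ± 6.81 CPM in hyperoxia (SD, n = 6), a log2 fold change of 1.88 (SE 0.25) with an adjusted p of 6.79e-05 (edgeR). Its locus overlaps genes on the opposite strand. Stxbp5, a regulator of the exocytosis of these bodies, rose by 0.59 (SE 0.12) on the log2 scale with an adjusted p of 0.00264 (edgeR), and its locus overlaps a gene on the same strand. In both genes all 6 hyperoxic libraries were above the normoxic ones. Of the 4 listed genes of this group, 3 were tested, 2 were higher and Stx2 did not pass. Adamts13, which encodes the protease that cuts von Willebrand factor, had 2 counts in all and was not tested. Platelet markers were low in both groups, with a summed level of 82.5 to 116 CPM in normoxia and 62.7 to 90.5 CPM in hyperoxia. Of the 10 platelet markers 6 were tested, and Ppbp was lower, while the others did not pass. The part of platelet RNA in the level of Vwf was not tested.

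On the side of fibrinolysis, the activator made by blood vessels rose. Plat (chr8:22757727-22782844, + strand) encodes tissue-type plasminogen activator. In normoxia it was at 8.62 CPM at the lowest, 14.9 at the median and 19.0 at the highest. In hyperoxia it was at 7.51, 106 and 118 CPM. The other 5 hyperoxic libraries, between 48.8 and 118 CPM, were all above the normoxic range, and Hyperoxia 1 was below it. The means were 14.5 ± 4.10 CPM (SD, n = 7) and 83.8 ± 45.7 CPM (SD, n = 6). The log2 fold change was 2.53 (SE 0.43, 95% interval 1.63 to 3.44), or 5.78-fold, with an adjusted p of 0.000546 (edgeR), and 2.78 (SE 0.24) with an adjusted p of 5.07e-07 (edgeR) without Hyperoxia 1. Plat was past the threshold in all 8 other tested settings and in all 13 fits that left out 1 library, the only member of which this held for both.

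Other genes of the plasminogen system were read beside Plat. Serpine2, which encodes an inhibitor of thrombin and of plasminogen activators, rose by 0.73 (SE 0.22) with an adjusted p of 0.0224 (edgeR). Its groups overlapped, and Hyperoxia 1 was at 469 CPM, against 142 to 267 CPM in the other hyperoxic libraries. Lrp1, which encodes a receptor that clears proteases and lipoproteins, rose by 0.49 (SE 0.16) with an adjusted p of 0.0356 (edgeR). The locus of Lrp1 overlaps a gene on the opposite strand. Vtn encodes vitronectin, an adhesive protein of plasma and matrix. It was at 3.34 at the lowest, 5.35 at the median and 12.7 CPM at the highest in normoxia, and at 0, 1.55 and 3.02 CPM in hyperoxia, close to the floor. All 6 hyperoxic libraries were below the normoxic ones, and Vtn was lower with an adjusted p of 0.00384 (edgeR). Of the 11 genes of the plasminogen system that were followed 6 were tested, 2 were higher, 1 was lower and 3 did not pass. Plg, the gene of plasminogen, had 3 counts in all libraries.

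Plau (chr14:20836660-20843385, + strand) encodes urokinase, the plasminogen activator of tissue and migrating cells, which epithelial cells and macrophages also make. Its normoxic levels were 109, 177 and 242 CPM at the lowest, median and highest. The hyperoxic libraries stood at 2.14, 58.2, 200.1, 67.6, 287 and 6.34 CPM for replicates 1 to 6, a 134-fold spread. In 4 of them Plau was below all normoxic libraries, in 1 within their range and in 1 above it. The log2 fold change was -0.88 (SE 0.68, 95% interval -2.31 to 0.56) with an adjusted p of 0.389 (edgeR), an interval that holds both a large fall and a small rise. Without Hyperoxia 1 it was -0.60 with an adjusted p of 0.436, and without Hyperoxia 5 it was -1.497 with an adjusted p of 0.137 (edgeR). The size depended on the test, at -2.15 with an adjusted p of 0.0687 in limma-voom, and Plau was not past the threshold in any setting tested.

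Plaur (chr7:24462484-24475968, + strand) encodes the receptor that holds urokinase at the cell surface. It was low in both groups, at 4.74 to 17.0 CPM with a median of 6.54 in normoxia and at 5.36 to 27.6 CPM with a median of 13.97 in hyperoxia. The ranges overlapped over most of their length, and 2 hyperoxic libraries were above all normoxic ones. The log2 fold change was 0.73 (SE 0.38, 95% interval -0.08 to 1.53) with an adjusted p of 0.188 (edgeR), and 0.91 with an adjusted p of 0.0573 (edgeR) without Hyperoxia 1.

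**Figure D3:**
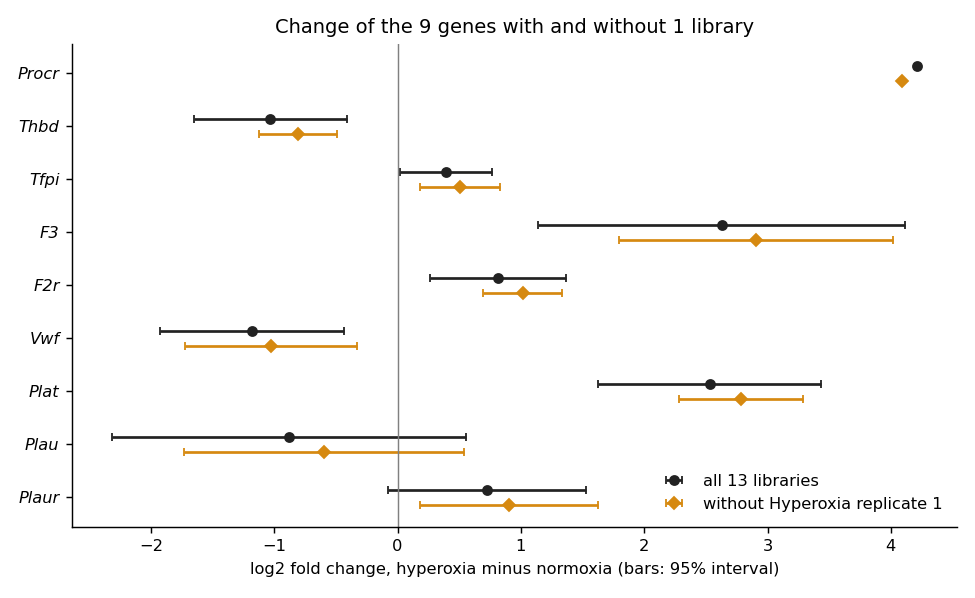
Log2 fold change (hyperoxia minus normoxia) of the 9 genes, with its 95% interval for the 8 genes other than Procr, for all 13 libraries (black circles) and without Hyperoxia 1 (orange diamonds). Leaving out this library narrowed the intervals of Thbd, Plat and F2r and kept the direction of all 9 genes.

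The spread of the members within the groups was described by the correlation of their deviations from the group means, in log2 CPM over the 13 libraries, which share depth and any difference in handling. Thbd and F2r moved together (Pearson's r of 0.968), as did Plat and F2r (0.951) and Thbd and Plat (0.921). Much of this came from Hyperoxia 1, and over the other 12 libraries the values were 0.778, 0.710 and 0.472. Plau moved with F3 in both, at 0.812 over 13 and 0.592 over 12 libraries. Procr had negative values with Thbd, Plat and F2r over 13 libraries (-0.257, -0.180 and -0.205) and positive ones over 12 (0.402, 0.493 and 0.456).

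The genes whose levels over the 13 libraries were most like that of Procr were Ifrd1 (r of 0.981), Lrp8 (0.979), 9030617O03Rik (0.977), Spink5 (0.976) and Cd93 (0.975). These values mostly hold the difference between the groups, which all these genes share. Cd93, a transmembrane protein of endothelial and myeloid cells, was at 695 to 854 CPM in normoxia and at 2449 to 5550 CPM in hyperoxia. Spink5, which encodes a serine protease inhibitor, was at 31.5 to 72.0 CPM and at 344 to 1173 CPM. Lrp8, which encodes a lipoprotein receptor, was at 1.19 to 1.96 CPM and at 6.46 to 11.5 CPM, and Ifrd1 at 108 to 167 CPM and at 495 to 697 CPM.

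The wider pathway was read from 50 other listed genes, of which 27 were tested. Of these, 8 were higher and 2 lower in hyperoxia, or 29.6% and 7.41%, against 11.8% and 10.8% of all genes tested, and their median log2 fold change was 0.26. Without Hyperoxia 1, 10 were higher and 3 lower, where 15.2% and 13.3% of all genes were. Of the 20 listed coagulation factors and their processing genes 10 were tested, and 2 of them were higher. F13a1 encodes the subunit of factor XIII that cross-links fibrin and is strong in macrophages. It rose from 21.1 ± 4.11 CPM in normoxia (SD, n = 7) to 40.8 ± 8.32 CPM in hyperoxia (SD, n = 6), a log2 fold change of 0.96 (SE 0.17) with an adjusted p of 0.000800 (edgeR), and its locus overlaps genes on the opposite strand. Lman1 encodes the cargo receptor that carries factors V and VIII out of the endoplasmic reticulum, and rose by 0.63 (SE 0.17) with an adjusted p of 0.0126 (edgeR). In both genes all 6 hyperoxic libraries were above the normoxic ones. The genes of prothrombin and the fibrinogen chains, made by the liver, had at most 8 counts each over all libraries.

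Of 3 genes that respond to blood flow and help keep endothelium anticoagulant, all tested, 2 were higher. Nos3, the endothelial nitric oxide synthase, rose from 18.7 ± 4.96 CPM in normoxia (SD, n = 7) to 70.9 ± 26.0 CPM in hyperoxia (SD, n = 6), a log2 fold change of 1.92 (SE 0.24) with an adjusted p of 4.30e-05 (edgeR) and no overlap between the groups. Its locus overlaps genes on the opposite strand. Klf4, a transcription factor, rose by 0.69 (SE 0.21) with an adjusted p of 0.0228 (edgeR). Its groups overlapped, and Hyperoxia 1 was at 1021 CPM, against 550 to 717 CPM in the other hyperoxic libraries. Klf2, a transcription factor known to drive the expression of Thbd, had a log2 fold change of 0.08 (SE 0.24) and an adjusted p of 0.854 (edgeR).

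**Figure D4:**
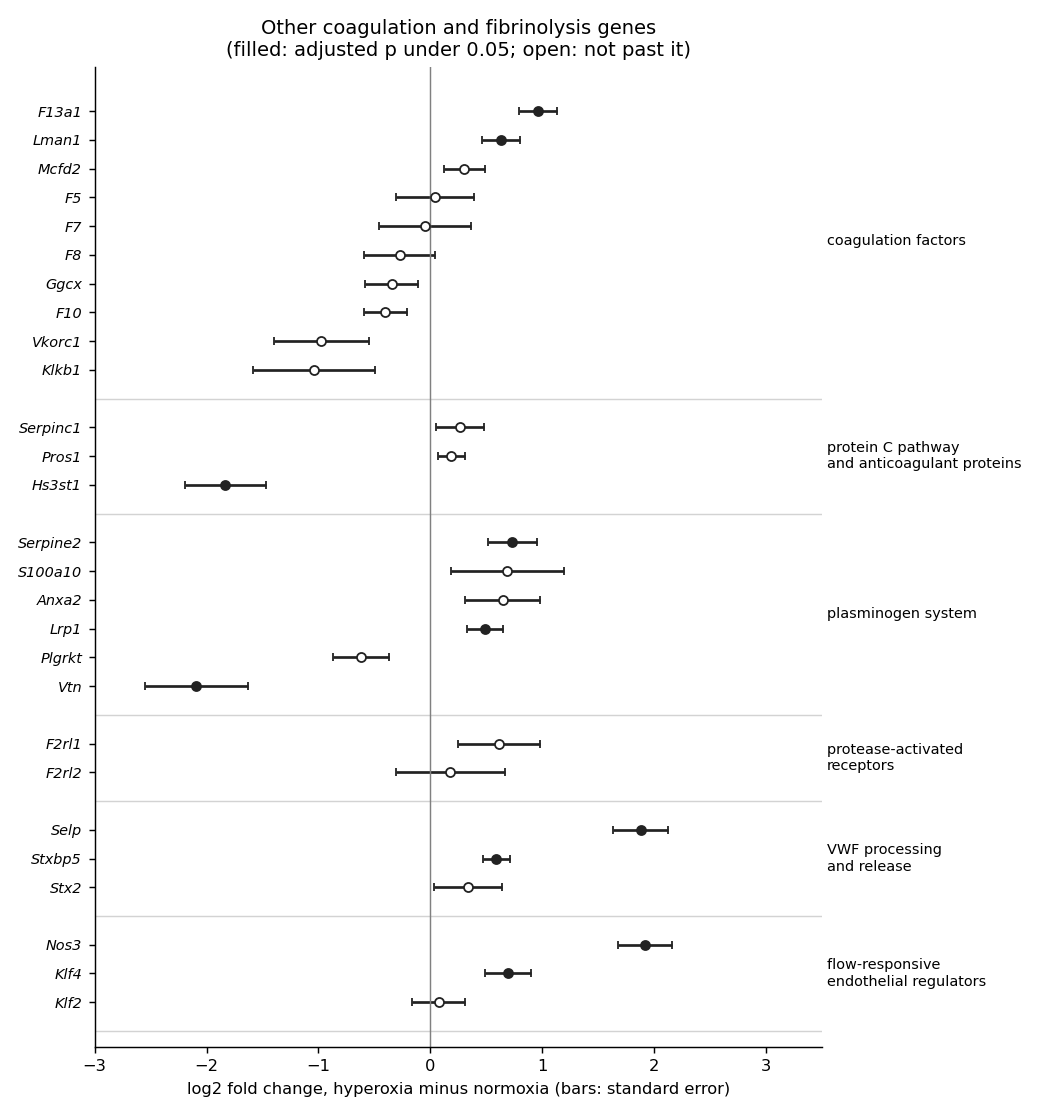
Log2 fold change (hyperoxia minus normoxia) with its standard error of the 27 other pathway genes that were tested, grouped by list, with filled circles for an adjusted p under 0.05 (edgeR) and open circles for the rest. The 8 filled circles on the right include Nos3, Selp and F13a1, and the 2 on the left are Hs3st1 and Vtn.

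Markers of lung endothelium moved beside the members. Of the 12 pan-endothelial markers 3 were higher (Egfl7, Eng and Robo4), 3 were lower (Tie1, Tek and Erg) and 6 did not pass, with a median log2 fold change of -0.10. Their summed level was 3025 to 5571 CPM in normoxia and 2634 to 6074 CPM in hyperoxia, and none of them was at 0 in any library. Markers of capillary cells were lower, 3 of 5 for aerocytes (341 to 439 CPM against 187 to 267 CPM) and 3 of 4 for general capillary cells (239 to 374 CPM against 42.9 to 188 CPM). Of the 8 arterial and venous markers 3 were lower and 5 did not pass, with summed levels of 893 to 1181 CPM and 582 to 1602 CPM. The sum of 1602 CPM was that of Hyperoxia 1, and the other hyperoxic libraries ran from 582 to 1145 CPM. The median log2 fold change of the general capillary markers was -2.09, and the lowest sum, 42.9 CPM, was that of Hyperoxia 1. Whether the levels of Thbd and Vwf follow these capillary markers was not tested.

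Relative to the mean log2 CPM of the pan-endothelial markers in each library, the difference between the groups was 4.20 for Procr, 2.27 for Plat, 1.59 for F3, 0.84 for Plaur, 0.83 for F2r and 0.53 for Tfpi. It was -2.02 for Plau, which was not called, and -1.07 for both Thbd and Vwf. On this scale the 2 groups remained apart in Procr and Thbd. All these values are differences in mean log2 CPM, unlike the fold changes of the fit. Without the markers they were 4.03 for Procr, 2.11 for Plat, 1.43 for F3, 0.68 for Plaur, 0.66 for F2r and 0.37 for Tfpi. For Plau the value was then -2.18, and for both Thbd and Vwf it was -1.23. The pan-endothelial mean itself differed by -0.16 between the groups and was lowest in Hyperoxia 1, at 6.00 against 6.46 to 7.05 in all the others. The summed CPM of the same markers in Hyperoxia 1, 5199, was within the normoxic range, since Egfl7 and Eng were high in it while Pecam1, Esam and Cldn5 were low.

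Markers of other cells that make some of these proteins also differed. Of the 10 alveolar epithelial markers 5 were lower, and their summed level was 5100 to 8787 CPM in hyperoxia. Of the 9 macrophage markers 1 was higher, 1 was lower and 7 did not pass, at 415 to 542 CPM and 523 to 784 CPM. Of the 6 fibroblast markers 4 were tested and 1 was higher, and of the 6 markers of smooth muscle cells and pericytes 2 were higher. Of the 7 lymphatic markers Lyve1 alone was higher, from 625.3 ± 148 CPM in normoxia (SD, n = 7) to 5508 ± 1791 CPM in hyperoxia (SD, n = 6), and of 5 mesothelial markers 4 were tested and 2 were lower. The 4 neutrophil markers tested did not pass, with summed levels of 102 to 198 CPM and 41.3 to 244 CPM, or 87.8 to 244 CPM without Hyperoxia 1. The part of these cells in the levels of F3, Plau and Plaur was not tested.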

How the data were processed

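Quant-seq libraries of 13 lung samples (7 normoxia, 6 hyperoxia) were analysed. Reads were pseudoaligned by the authors with kallisto through BioJupies. They deposited raw counts, which are whole numbers, for 32544 gene symbols, and a second table of log10(CPM + 1), in which each library's total count is the divisor. The submitters' processing notes name mm10 and limma 3.54.2, and the annotation is not given in the sources used here. All columns belong to the 13 samples, and 0 were left out.

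Counts were tested with edgeR 4.0.16 (glmQLFit, glmQLFTest; R 4.3.3). Low genes were removed with filterByExpr, libraries were scaled by the trimmed mean of M-values (TMM), no covariate was used, and p-values were adjusted by Benjamini-Hochberg over 12496 genes. The threshold was an adjusted p of 0.05, the prior count of log2 CPM was 2, and the floor was 3 counts, which covers counting error only. The fit was tested on simulated data. The members and lists were chosen with earlier results of these data known. Named were the 9 members, pathway genes past the threshold (at most 10 per direction), Proc, Serpinc1, Klf2 and Klf4, and the 5 genes most correlated with Procr. One listed gene is not reported here. Other genes are examples named after their values were seen. Coordinates are from GENCODE on GRCm38, matched by symbol. All 36 pairs of libraries within a group differed by more than sampling noise, with a chi-square per gene of at least 3.90.

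Alternatives were DESeq2 1.42.0, limma-voom and limma 3.58.1 on the deposited log10 values, library size alone, no filter, a mean count of at least 10, the replicate number as a block, the letters as a term, values within letters or relative to pan-endothelial markers, and each library left out.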

Additional observations from a re-analysis of the deposited data

Results flagged for a closer look

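In groups of 6 or 7 libraries, a library was marked where its gap to the next, as a share of the group's whole range, exceeded 0.625 or 0.568, with genes taken as log2 CPM, total counts as log2 and mean correlations as they are. Of 46 groups examined for 23 results, 8 were marked, where chance marks about 1 in 20 groups, and 5 of the 8 were Hyperoxia 1. It was the lowest hyperoxic library in Thbd (0.696), Plat (0.672) and F2r (0.746) and the highest in Lman1 (0.724). Its mean correlation with the other libraries was the lowest of its group, with a ratio of 0.763. Normoxia 5 was the highest normoxic library in F13a1 (0.636) and had the lowest total count (0.694), at 1607111. Hyperoxia 3 was the highest hyperoxic library in Serpinc1, with a ratio of 0.774 and a level of 55.2 CPM.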

How the results depend on the processing

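Of the members, 3 were called higher with all libraries, but 1 with limma-voom, with limma on the deposited log10 values and with the replicate block. F3 was not past the threshold in these 3 settings (log2 fold changes of 1.37 to 1.61), nor was F2r, which was also not past it with library size alone or the letters as a term. The members called lower were 2, but 1 with the letters as a term and 1 to 2 when a library was left out, 1 without Normoxia 1 (Vwf lost). With the replicate block in edgeR 0 were called lower (log2 fold change of -1.21 and adjusted p of 0.0731 for Thbd, -1.33 and 0.0948 for Vwf), while 2 had an unadjusted p under 0.05 and DESeq2 without the block called 2. Within letters O to S the difference of Vwf was reversed, at 0.12. Pathway genes called higher were 8 and 3 with the block, and those called lower were 2, with 1 under the block and 4 without the filter on low counts. Over all genes, the block left 718 higher and 626 lower of 1473 and 1346. The replicate numbers share only a number: the correlations of same-numbered samples were -0.326 to 0.272, and 0 of 6 hyperoxic libraries correlated best with their own number. Among the tested values of the 8 members other than Procr, 151 kept their direction and side of the threshold, 16 lost the call and 1 gained it (Tfpi without Hyperoxia 1). Among the values with no test, Procr included, 45 moved by less than the spread between replicates, 2 by more and 1 was reversed. Values within letters or relative to the markers are differences in mean log2 CPM, set here against edgeR fold changes. For F3 within letters B to M, 1 of the 2, the value was 0.44, against 2.63 in edgeR. The difference of F3 in mean log2 CPM over all libraries was 1.43. Plau, never called, was at -2.21 with limma on the log10 values and -1.97 with the block. The share of higher genes among all called was 52.3%, but 42.7% without TMM scaling and 38.8% in the limma fit of the log10 values, which moved the median of all genes by -0.13. The cause of these changes was not tested. Depth limits Procr in normoxia (6 to 23 counts), Plaur (9 to 73 counts), Vtn and Proc.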
